A study of Mus musculus with 14 samples.

Results

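The antiviral type I interferon genes are the genes that cells switch on when they sense viral or bacterial nucleic acid, together with interferon beta and its receptor. Of 43 listed mouse genes, 41 were measured, out of 18193 genes that the array measured. For each gene the probe set that maps to that gene alone and has the highest mean over the 14 arrays was used. Isg15 was left out because its probe set is shared with another gene, and Ifi44 because no probe set carried its symbol. The other 41 all passed the brightness filter, which kept 12172 genes with a value above the overall median of 7.52 log2 on at least 2 arrays. On all 14 arrays 40 of the 41 were above that median, and Ifnb1 was the exception.

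Dendritic cells were grown for 8 days from marrow progenitors of BALB/c mice with recombinant granulocyte-macrophage colony-stimulating factor. All cultures were first kept for 1 h with the solvent DMSO (0.01%) alone, with 5 µM of the cathepsin L inhibitor CLIK148, or with 5 µM of the cathepsin B inhibitor CA074Me. The 7 groups were solvent, CLIK148 and CA074Me without a stimulus, solvent or CLIK148 followed by CpG (25 µg/mL), and solvent or CA074Me followed by TNF-alpha (500 U/mL). Each group has 2 arrays, 1 from each of 2 independent experiments. How long the cells were stimulated before harvest was not found in the labels.

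CpG oligonucleotides are ligands of the endosomal receptor TLR9, which signals through MyD88 to NF-kB and to interferon regulatory factors. Secreted interferon binds the receptor chains IFNAR1 and IFNAR2, and the transcription factors activated downstream then bind interferon-stimulated response elements in the promoters of the induced genes. The induced genes encode sensors of viral RNA, proteins that block viral translation or entry, RNA-degrading enzymes and feedback regulators. Plasmacytoid dendritic cells are known for strong interferon alpha output after TLR9 ligands, while cultures grown with granulocyte-macrophage colony-stimulating factor hold mainly conventional-type dendritic cells, macrophage-like cells and granulocytes. TNF acts mainly through NF-kB.

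The cultures were checked against cell type markers. All 10 dendritic cell markers were above the overall median on every array, and so were all 7 measured macrophage markers and all 9 measured granulocyte markers. The mean of the granulocyte list was 11.96 to 12.33 log2 over the arrays. Of 8 plasmacytoid markers 5 were above the median on every array, with a list mean of 8.27 to 8.43 log2. Siglech, a plasmacytoid surface lectin gene, was at 7.68 to 7.91, and Tcf4, the brightest of the list, at 10.76 to 11.95. The lymphocyte markers Cd3g, Cd79a and Ncr1 and the erythroid and stromal markers Hba-a1, Col1a1 and Col1a2, 3 of 6 and 3 of 5 measured, were at or below the median on all arrays. Among the others, Cd3e was just above it on every array (7.65 to 7.95 log2), and Nkg7 (7.29 to 7.56) and Klf1 (7.51 to 7.80) lay around it. The B cell marker Ms4a1 read 7.11 to 7.80 in experiment 1 and 8.09 to 8.43 in experiment 2, and the stromal marker Dcn 7.201 to 7.43 and 8.18 to 8.41. In such mixed cultures fewer cells of a type and less RNA per cell cannot be told apart.

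The promoters of the induced genes carried the letters of the response element more often than promoters at large. A window of 250 bases before to 50 after the start was found in RefSeq (GRCm38.p6, the C57BL/6J reference) for 32 of the 41 measured members. The core of the response element, read as GAAA, any 2 bases and GAAA and searched on both strands, was present in 13 of the 32 (40.6%), against 3.99% of 27025 genes. At least 2 matches, overlapping ones included, were present in 7 members and in 0.27% of all genes. The core of the gamma-activated site, TTCNNNGAA, was present in 10 (31.2%), against 9.55% of genes. The sequences shown here are the 250 bases before the start for an induced gene with a pair of matches (Ifit1), for the unmeasured Isg15 with 3 overlapping ones, for Rsad2 with 1 and for the receptor gene Ifnar1 with none. For Ifih1, whose match begins 32 bases after the start, 28 bases are shown. Each reads 5′ to 3′ on the gene's strand, and capitals mark this core or its reverse complement, a match of letters and not a shown binding site.
Ifit1, chr19:34640639-34640888, plus strand: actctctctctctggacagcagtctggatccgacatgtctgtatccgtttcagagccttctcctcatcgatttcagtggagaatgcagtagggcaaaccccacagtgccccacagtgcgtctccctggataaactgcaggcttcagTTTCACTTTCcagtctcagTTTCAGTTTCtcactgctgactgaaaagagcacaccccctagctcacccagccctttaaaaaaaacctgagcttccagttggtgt
Isg15, chr4:156200819-156201068, minus strand: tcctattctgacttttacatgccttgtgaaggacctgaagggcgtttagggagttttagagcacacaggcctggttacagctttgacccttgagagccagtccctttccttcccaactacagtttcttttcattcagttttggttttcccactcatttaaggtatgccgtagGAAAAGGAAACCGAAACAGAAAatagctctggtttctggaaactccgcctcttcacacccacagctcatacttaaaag
Rsad2, chr12:26456453-26456702, minus strand: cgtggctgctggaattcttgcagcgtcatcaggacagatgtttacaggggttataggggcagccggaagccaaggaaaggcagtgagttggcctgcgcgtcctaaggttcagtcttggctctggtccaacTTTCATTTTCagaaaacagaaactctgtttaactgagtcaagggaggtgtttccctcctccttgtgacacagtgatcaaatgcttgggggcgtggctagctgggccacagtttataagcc
Ifih1, chr2:62646206-62646233, minus strand: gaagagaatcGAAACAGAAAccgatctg
Ifnar1, chr16:91484965-91485214, plus strand: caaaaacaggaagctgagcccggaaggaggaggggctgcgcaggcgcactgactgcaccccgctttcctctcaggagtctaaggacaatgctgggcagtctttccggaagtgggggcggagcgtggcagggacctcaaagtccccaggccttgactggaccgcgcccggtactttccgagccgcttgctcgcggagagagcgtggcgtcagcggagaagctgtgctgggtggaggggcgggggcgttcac

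With CpG nearly the whole gene set read higher in both experiments, by far more in experiment 1 than in experiment 2. In solvent-treated cells 40 of the 41 members had a higher mean with CpG, with a median difference of 1.02 log2 against -0.05 over all genes tested. Within experiment 1 the median was 1.61 log2, and within experiment 2 it was 0.46. In both experiments 37 members were higher (25.4% of all genes) and only Ifnar2, a chain of the interferon receptor, was lower in both. A difference of at least 2-fold was measured for 33 members in experiment 1 (3.36% of all genes) and for 2 members, Ifit1 and Mx1, in experiment 2 (0.608%).

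No member passed limma's test across all genes without the experiment in the model (0 of 41, adjusted p under 0.05; 13 at an unadjusted p under 0.05). Over all genes 1.92% passed. The smallest adjusted p was 0.0792, for Usp18. Once the experiment entered as a block, 19.9% of all genes passed, 753 of 12172 higher and 1667 lower. Among the members 14 passed, 13 higher and Ifnar2 lower. The 10 with the smallest adjusted p were Mx1 (0.0135), Usp18 (0.0224), Adar (0.0262), Ifit1 (0.0281), Ifnar2 (0.0285), Parp14 (0.0373), Parp9 (0.0386), Oasl1 (0.0403), Rsad2 (0.0429) and Eif2ak2 (0.0461). The share of members passing with the block (14 of 41) has to be read against that background, and the block leaves 6 residual degrees of freedom. The count without the block turned on single arrays: without the CpG array of experiment 2 it was 24. The member median was 0.31 log2 without the CpG array of experiment 1 and 1.70 without that of experiment 2. The distance from a member's difference to the edge of its 95% interval was 1.09 log2 in the median (0.80 with the block), against 0.301 (0.203) for all genes.

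**Figure D1:**
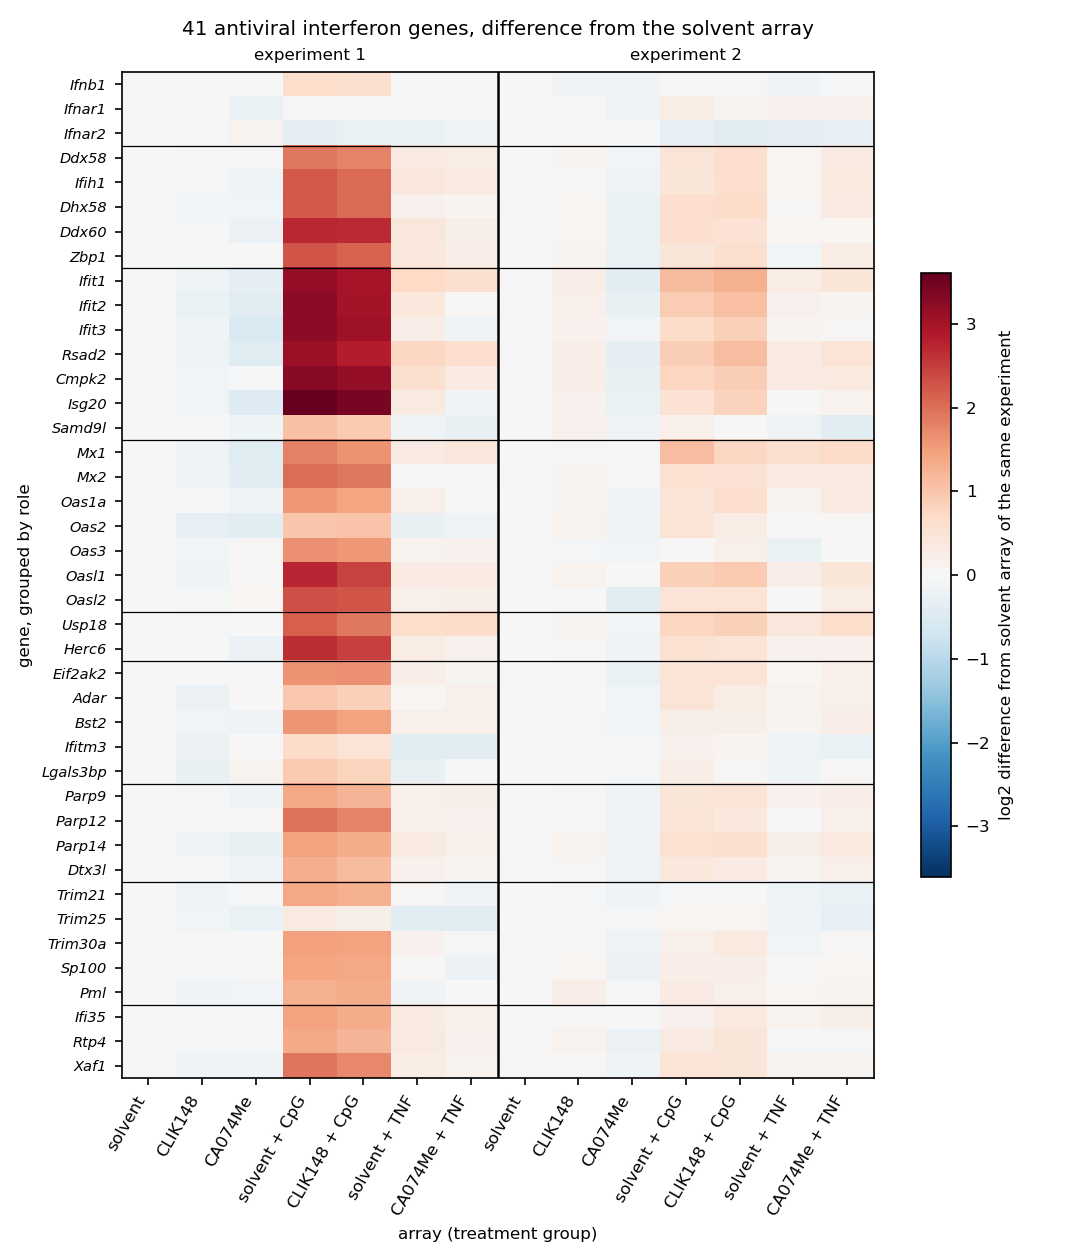
Difference of each of the 41 members (rows, grouped by role, black lines between roles) from the solvent array of the same experiment, on 14 arrays (columns), in log2 units on a scale symmetric about 0. The 2 CpG columns of experiment 1 are the darkest, up to 3.61 log2 for Isg20, while the solvent CpG column of experiment 2 does not exceed 1.13 log2.

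The receptor genes differed little with CpG, and the interferon beta gene was too dim on most arrays for the size of its difference to be read. Ifnb1, which encodes interferon beta, read 7.49 and 7.57 log2 in solvent in experiments 1 and 2, 8.13 and 7.58 with CpG, 8.07 and 7.60 with CLIK148 and CpG, and 7.44 to 7.52 on the other 8 arrays. Only the 2 CpG arrays of experiment 1 stood clear of the rest, all others being near the overall median of 7.52 where the array hardly separates signal from background. Ifnb1 was at or below the overall median on 9 of 14 arrays and met the brightness filter through the CpG arrays and 1 solvent array. Its differences of 0.64 log2 in experiment 1 and 0.01 in experiment 2 are therefore taken against background, and no test of Ifnb1 is relied on. The interferon alpha genes Ifna1, Ifna2, Ifna4, Ifna5 and Ifna11 were read at 6.57 to 7.64 log2 on all arrays.

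Ifnar1, the first chain of the receptor, read 10.97 and 10.86 log2 in solvent, 10.95 and 10.90 with CLIK148, and 10.74 and 10.74 with CA074Me. It read 10.91 and 11.12 with CpG, 10.94 and 10.97 with CLIK148 and CpG, and 11.01 and 11.01, or 10.98 and 11.01, with TNF after solvent or CA074Me. Both arrays with CA074Me alone were the lowest. The 4 TNF arrays were all above the 6 unstimulated ones and both arrays with CLIK148 and CpG, and the solvent CpG arrays spanned that range. Ifnar2, the second chain, read 11.55 and 11.77 in solvent, 11.52 and 11.81 with CLIK148 and 11.68 and 11.70 with CA074Me. With a stimulus it read 11.24 and 11.47 (solvent and CpG), 11.31 and 11.36 (CLIK148 and CpG), 11.30 and 11.44 (solvent and TNF) and 11.38 and 11.48 (CA074Me and TNF). In the probe set used, all 8 stimulated arrays were below all 6 unstimulated ones. The CpG difference was -0.30 ± 0.12 log2, nearly the same in both experiments (-0.31 and -0.29), with limma adjusted p = 0.239, and 0.0285 with the block. Dimmer probe sets of Ifnar2 had CpG differences of -0.21 and -0.13 log2, and their ranges overlapped. There CLIK148 and CpG in experiment 1 read 10.585 and 9.34, above CLIK148 alone in experiment 2 (10.583 and 9.15).

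**Figure D2:**
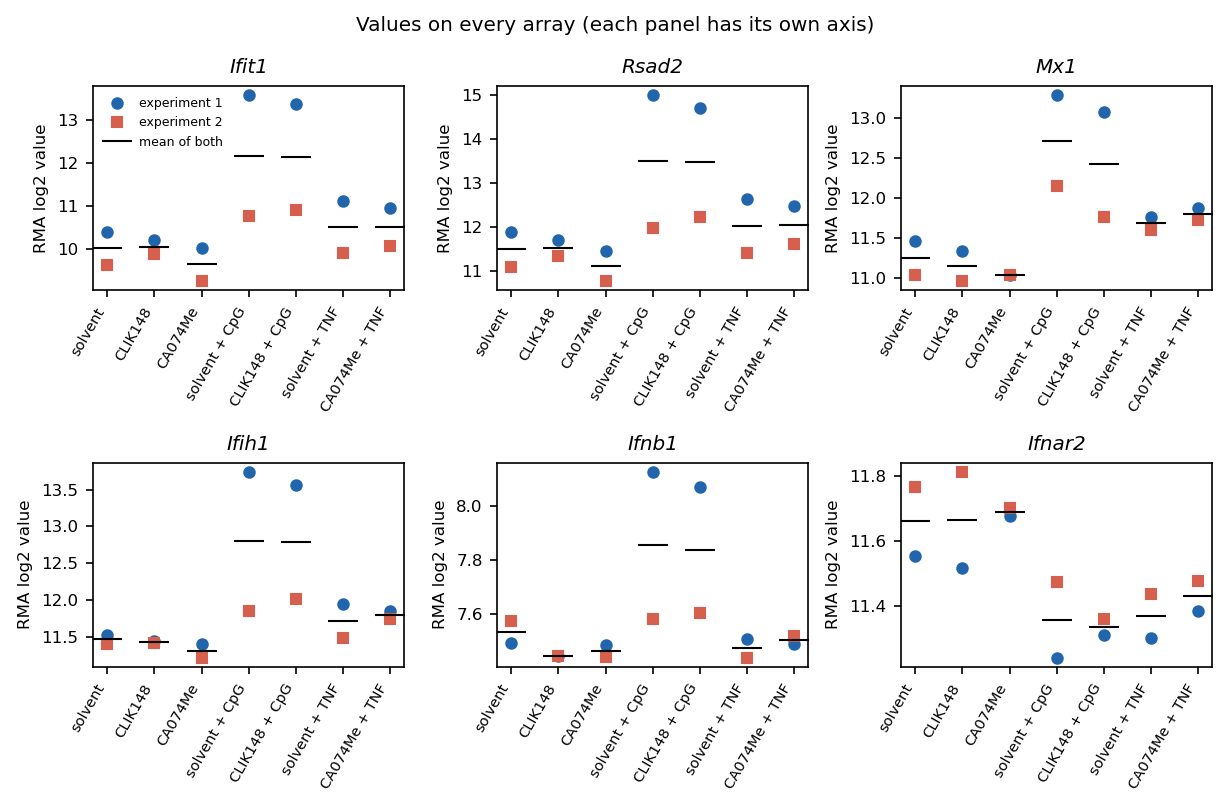
RMA log2 values (vertical axis, a separate range in each panel) of 6 members on every array, by treatment group, with circles for experiment 1, squares for experiment 2 and a bar for the mean of both. Ifit1, Rsad2, Mx1 and Ifih1 are highest on the CpG arrays of experiment 1, Ifnb1 leaves the floor on those 2 arrays only, and all stimulated values of Ifnar2 are below the unstimulated ones.

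The cytosolic sensors were all higher with CpG. The 5 sensor genes had a median CpG difference of 1.35 log2 (1.18 to 1.66). In limma 0 passed with or without the block, against 19.9% and 1.92% of all genes. Ddx58, which encodes the RNA sensor RIG-I, read 10.67 and 10.20 log2 in solvent, 10.64 and 10.31 with CLIK148, 10.60 and 10.10 with CA074Me, 12.57 and 10.67 with CpG and 12.45 and 10.80 with CLIK148 and CpG. With TNF it read 10.98 and 10.27, and 10.94 and 10.49 after CA074Me. Its CpG values of experiment 2 reached down to the unstimulated values of experiment 1, although within each experiment CpG was above all unstimulated arrays.

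Ifih1, the gene of the long double-stranded RNA sensor MDA5, read 11.53 and 11.40 in solvent, 11.45 and 11.42 with CLIK148, 11.41 and 11.22 with CA074Me, 13.74 and 11.85 with CpG and 13.56 and 12.01 with CLIK148 and CpG. With TNF it read 11.95 and 11.49, and 11.85 and 11.75 after CA074Me. Dhx58, the gene of the regulator LGP2, read 9.91 and 10.004 in solvent, 9.80 and 10.08 with CLIK148, 9.81 and 9.76 with CA074Me, 12.13 and 10.61 with CpG and 11.96 and 10.67 with CLIK148 and CpG, against 10.002 to 10.32 with TNF. Both genes had all 4 CpG arrays above all 6 unstimulated ones. The mean CpG differences of Ddx58, Ifih1 and Dhx58 were 1.18 ± 0.65, 1.33 ± 0.59 and 1.41 ± 0.48 log2 (limma adjusted p = 0.378, 0.278 and 0.173). Ddx60, a helicase gene linked to RIG-I signalling, and Zbp1, the gene of a Z-form nucleic acid sensor, were at 1.66 ± 0.76 and 1.35 ± 0.78 log2.

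The largest differences were those of the IFIT genes, viperin and the nucleotide enzymes. This group of 7 had a median of 2.02 log2, and 3 of the 7 passed higher with the block (753 of 12172 genes). Ifit1, whose product binds viral RNA that lacks the host cap methylation, read 10.40 and 9.63 in solvent, 10.22 and 9.88 with CLIK148, 10.03 and 9.26 with CA074Me, 13.58 and 10.76 with CpG and 13.38 and 10.91 with CLIK148 and CpG. With TNF it read 11.12 and 9.90, and 10.96 and 10.07 after CA074Me. Its CpG difference was 3.18 log2 in experiment 1 (9.04-fold) and 1.13 in experiment 2 (2.19-fold), with a mean of 2.15 ± 0.99.

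Ifit2, the next gene of the same family, read 10.9999 and 10.29 in solvent, 10.77 and 10.46 with CLIK148, 10.61 and 10.01 with CA074Me, 14.23 and 11.21 with CpG, 14.01 and 11.37 with CLIK148 and CpG, 11.37 and 10.45 with TNF and 11.05 and 10.39 with CA074Me and TNF. Ifit3, which stabilises IFIT complexes, read 9.91 and 9.03 in solvent, 9.79 and 9.18 with CLIK148, 9.37 and 8.93 with CA074Me, 13.15 and 9.70 with CpG, 12.97 and 9.88 with CLIK148 and CpG, 10.15 and 9.12 with TNF and 9.78 and 9.07 with CA074Me and TNF. In experiment 2 the CpG values of Ifit3 were below its solvent value of experiment 1. The CpG differences of Ifit2 and Ifit3 were 2.07 ± 1.01 and 1.95 ± 1.17 log2 (limma adjusted p = 0.319 and 0.413, and 0.0492 and 0.0871 with the block).

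Rsad2, the gene of viperin, which makes a chain-terminating nucleotide, read 11.88 and 11.10 in solvent, 11.71 and 11.34 with CLIK148, 11.46 and 10.77 with CA074Me, 14.9998 and 11.99 with CpG and 14.72 and 12.22 with CLIK148 and CpG. With TNF it read 12.64 and 11.41, and 12.49 and 11.61 after CA074Me. The CpG difference was 3.12 and 0.89 log2 in the 2 experiments. At 14.9998 log2 the CpG value of experiment 1 is close to the highest on any array (15.55), and Rsad2's dimmer probe sets differed by 3.72 and 4.01 log2 in experiment 1. Isg20, an RNA exonuclease gene, had the largest difference of any member in experiment 1 and a modest one in experiment 2 (3.61 and 0.51 log2). Cmpk2, a mitochondrial nucleotide kinase gene, was at 3.28 and 0.77, and Samd9l, an antiviral restriction factor gene, at 1.05 and 0.19.

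The Mx genes and oligoadenylate synthetases had a median CpG difference of 1.28 log2, all 7 above 0. With the block 3 passed, all higher (753 of 12172 genes). Mx1, the gene of a GTPase that traps influenza virus in mice, read 11.46 and 11.03 in solvent, 11.33 and 10.96 with CLIK148, 11.03 and 11.04 with CA074Me, 13.29 and 12.15 with CpG and 13.09 and 11.77 with CLIK148 and CpG. With TNF it read 11.77 and 11.59, and 11.88 and 11.73 after CA074Me. All 4 CpG arrays were above every unstimulated array, and after Ifit1 the CpG difference of Mx1 was the largest of the members in experiment 2 (1.12 log2, against 1.83 in experiment 1). BALB/c, like most laboratory strains, carries an Mx1 allele that gives no working protein, so these values describe the transcript.

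Oasl1, whose product limits translation of the interferon factor IRF7 in mice, read 10.04 and 9.59 in solvent, 9.90 and 9.73 with CLIK148, 10.02 and 9.61 with CA074Me, 12.78 and 10.45 with CpG, 12.48 and 10.53 with CLIK148 and CpG, 10.33 and 9.82 with TNF and 10.33 and 10.04 with CA074Me and TNF. All 4 CpG arrays were above the other 10. Its CpG difference was 1.80 ± 0.75 log2 (limma adjusted p = 0.250, and 0.0403 with the block). The enzymes Oas1a, Oas2 and Oas3, which make the messenger that activates RNase L, were at 1.02 ± 0.50, 0.74 ± 0.57 and 0.82 ± 0.51 log2. Oas3 was unequal between the experiments, at 1.64 log2 and -0.00.

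Usp18 had the smallest unblocked p of all members. Its product removes ISG15 from proteins and dampens signalling at IFNAR2. It read 11.98 and 12.19 in solvent, 11.95 and 12.28 with CLIK148, 11.95 and 12.09 with CA074Me, 14.13 and 12.95 with CpG and 13.89 and 13.05 with CLIK148 and CpG. With TNF it read 12.61 and 12.60, and 12.64 and 12.82 after CA074Me. CpG, TNF and unstimulated arrays formed 3 ranges that did not overlap. The CpG difference was 1.46 ± 0.36 log2 (2.15 in experiment 1, 0.77 in experiment 2). Herc6, the main ISG15 ligase gene in mice, was at 1.597 ± 0.601 log2.

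The effectors that act on RNA and at membranes differed less, with a median of 0.72 log2 over 5 genes. With the block 2 of the 5 passed, both higher (753 of 12172 genes). Eif2ak2, the gene of the kinase PKR, which stops translation on double-stranded RNA, read 10.07 and 9.89 in solvent, 10.07 and 9.94 with CLIK148, 10.01 and 9.65 with CA074Me, 11.68 and 10.38 with CpG, 11.71 and 10.38 with CLIK148 and CpG, 10.31 and 9.97 with TNF and 10.16 and 10.05 with CA074Me and TNF. Adar, the RNA-editing enzyme gene, read 9.98 and 9.92 in solvent, 9.78 and 9.91 with CLIK148, 9.98 and 9.81 with CA074Me, 10.96 and 10.39 with CpG, 10.85 and 10.19 with CLIK148 and CpG, 10.06 and 10.05 with TNF and 10.17 and 10.10 with CA074Me and TNF. For both genes all 4 CpG arrays were above the other 10. The CpG differences were 1.06 ± 0.46 log2 for Eif2ak2 and 0.72 ± 0.22 for Adar (limma adjusted p = 0.268 and 0.133, and 0.0461 and 0.0262 with the block). Bst2 (tetherin, which holds budding virions), Ifitm3 (a block to endosomal fusion) and Lgals3bp (a secreted glycoprotein) were at 0.90, 0.40 and 0.59 log2.

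The remaining genes had intermediate differences. The PARP genes and Dtx3l, whose product pairs with PARP9 as a ubiquitin ligase, had a median of 0.96 log2. With the block 3 of 4 passed, all higher (753 of 12172 genes). The 5 TRIM and nuclear body genes had a median of 0.78, with 0 passing with the block. Trim21, the cytosolic antibody receptor gene, was at 1.40 and -0.04 log2 in experiments 1 and 2. Trim25, a ubiquitin ligase gene of the RIG-I pathway, was at 0.19 ± 0.15 log2 in the probe set used. It was at 0.28 in another bright probe set but at 1.07 in a dimmer one. Among 32 other probe sets of the members, 21 were more than 1 log2 above the overall median, and all 21 had the same sign of CpG difference as the one used. Ifi35, Rtp4 and Xaf1 were at 0.81, 0.85 and 1.21 log2.

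Members with and without the response element core overlapped widely in their CpG difference. The 13 members with the core in the window had a median CpG difference of 1.06 log2 (0.40 to 2.15), and the 19 without it 0.83 (-0.30 to 2.07). All 13 with it and 18 of 19 without it were above 0. Ifit2 and Isg20 were among those without it. So were the interferon and receptor genes Ifnb1, Ifnar1 and Ifnar2, at 0.32, 0.10 and -0.30 log2, so the 19 are not all induced genes.

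The size of the CpG response differed between the experiments for nearly all of these genes. Tested as the difference of the paired differences in limma, the CpG response was smaller in experiment 2 for 39 of the 41 members, and larger for none, at adjusted p under 0.05. Over all genes 32.6% passed, 11.5% in that direction. The median member difference was -1.23 log2 (all genes 0.06). Without Ifnb1, which lay at background in the unstimulated cells, it was 38 of 40. The exceptions were the receptor chains, Ifnar1 (0.17, adjusted p = 0.137) and Ifnar2 (-0.04, adjusted p = 0.812). In this test solvent and CLIK148 pairs serve as replicates of CpG and all pairs come from the same 2 experiments. It therefore speaks of these 2 experiments and not of how experiments vary in general.

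Isg20 differed most, by -2.99 ± 0.17 log2, followed by Ifit3 (-2.62 ± 0.14), Cmpk2 (-2.44 ± 0.15), Ifit2 (-2.29 ± 0.14), Ddx60 (-2.18 ± 0.09) and Rsad2 (-2.14 ± 0.16). Among the smallest passing gaps were those of Trim25 (-0.30 ± 0.09, in the probe set used) and Ifitm3 (-0.51 ± 0.10). In experiments 1 and 2 the solvent CpG differences of Trim25 were 0.40 and 0.15 log2 in another bright probe set. In a dimmer one they were 1.74 and 0.40. For 39 members the 2 CpG arrays of experiment 1 were the highest of all 14 (10.5% of all genes). In 35 members both CpG arrays were above the 3 unstimulated arrays in each experiment (12.1% of all genes), so the smaller response of experiment 2 still separated from its own unstimulated cells. In experiment 2, 14 members differed by under 0.3 log2 with CpG.

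**Figure D3:**
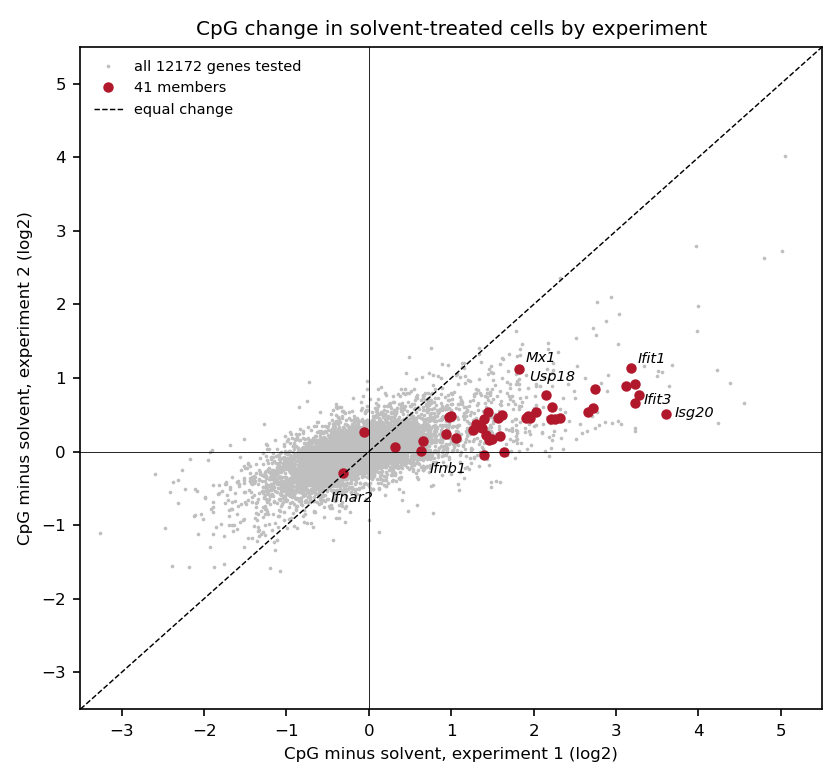
CpG minus solvent in experiment 2 (vertical axis, log2) against experiment 1 (horizontal axis, log2) for 12172 genes (grey) and the 41 members (red), with a dashed line of equal change. All members but Ifnar1 and Ifnar2 are below the line, and Mx1 and Ifit1 are the only members above 1 log2 in experiment 2.

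Unstimulated cells also differed between the experiments, but in both directions. Over the solvent, CLIK148 and CA074Me pairs, 18 members were lower and 9 higher in experiment 2 (limma, adjusted p under 0.05). Of all genes 36.0% passed, 11.9% lower and 24.1% higher. These 3 pairs serve as replicates and come from the same 2 experiments, so the test does not speak of how experiments vary in general. The median member difference was -0.07 log2 (all genes 0.04), and -0.14 without the CLIK148 pair, -0.098 without the solvent pair and -0.076 without the CA074Me pair. Lowest were Cmpk2 (-0.83 ± 0.10), Oasl2 (-0.67 ± 0.09) and Ifit3 (-0.65 ± 0.09), and highest were Herc6 (0.42 ± 0.05), Bst2 (0.40 ± 0.05) and Isg20 (0.28 ± 0.11, adjusted p = 0.0643). The IFIT, viperin and nucleotide enzyme genes had a median of -0.61 log2, with 6 of 7 passing, all lower. Usp18 (0.23 ± 0.07) and Herc6, the ISG15 regulators, were higher in experiment 2 before any stimulus. Without the solvent pair the count of 27 was 18, and without the CLIK148 or CA074Me pair it was 20. Markers moved with the experiment in the same unstimulated cells, by the same test. Of the tested markers, 4 of 10 dendritic ones were higher and 3 lower in experiment 2, 1 of 7 macrophage ones higher and 4 lower, 3 of 7 plasmacytoid ones higher and 1 lower, and 1 of 9 granulocyte ones higher and 4 lower. The activation marker Cd86 read 11.65 and 12.95 log2 in solvent in experiments 1 and 2 (1.30 ± 0.07 higher over the 3 pairs), Ccr7 12.41 and 13.32 (0.92 ± 0.05 higher) and the dendritic cell integrin gene Itgax 12.08 and 11.21 (-0.76 ± 0.08). Ms4a1 and Dcn were higher as well (1.08 ± 0.06 and 0.99 ± 0.07). The part of these differences in those of the members was not tested.

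**Figure D4:**
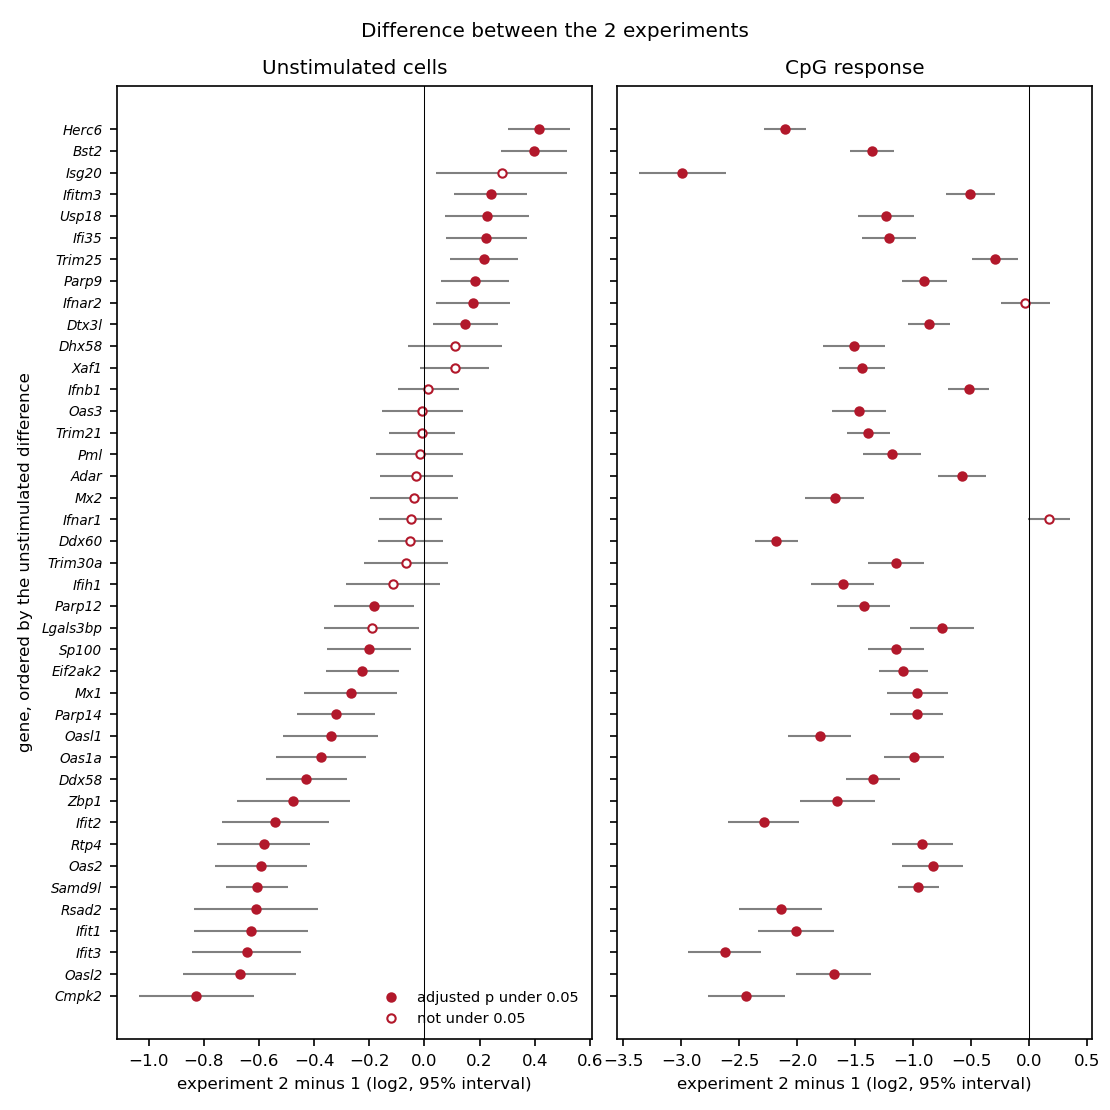
Experiment 2 minus experiment 1 (horizontal axis, log2, with 95% intervals) for each member (rows, ordered by the left panel) in unstimulated cells (left) and for the CpG response (right), filled where limma's adjusted p was under 0.05. Unstimulated differences range from -0.83 to 0.42 on both sides of 0, while the CpG response differences of 39 members, Ifnb1 with its dim unstimulated values among them, lie from -2.99 to -0.30.

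Markers of cell type and activation also moved with CpG and with the experiment. With CpG in solvent-treated cells, the dendritic cell lectin gene Clec10a fell by 1.599 ± 0.285 log2 (limma adjusted p = 0.0326). With the block, 3 of 7 macrophage markers were lower (1667 of 12172 genes), namely C1qa (-1.51 ± 0.46), Csf1r (-0.40 ± 0.18) and Cd68 (-0.32 ± 0.35). The migration receptor gene Ccr7 was higher with the block (1.17 ± 0.41, 753 of 12172 genes). These standard errors are those of the fit without the block. Fcgr1 and Mertk, the 2 macrophage markers above 0 in mean, read 11.35 and 11.26, and 8.95 and 8.29 log2, in solvent. With CpG they read 12.89 and 10.86, and 9.37 and 8.24. The macrophage list mean was 11.67 and 11.50 log2 with CpG and 12.06 and 11.80 in solvent. For 9 granulocyte markers the means were 12.24 and 12.08, against 12.25 and 12.05, and for plasmacytoid markers 8.35 and 8.35, against 8.30 and 8.39. Of 7 tested plasmacytoid markers 2 were above 0 in mean and 1 was lower with the block. Tcf4, 1 of the 2, read 11.07 and 11.42 log2 in solvent and 11.95 and 11.50 with CpG. The CpG response of C1qa, Fcgr1 and Ccr7 also differed between the experiments, by 1.52, -1.83 and -1.05 log2. The part of cell make-up in the members' gap was not tested.

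Other genes of the interferon pathway were mixed. Of 41 listed genes of induction and signalling, 32 were measured and 26 tested, with a median CpG difference of 0.31 log2 and 20 above 0. Ticam1, the TRIF adaptor gene of TLR3 and TLR4, rose by 0.42 ± 0.08 log2 (limma adjusted p = 0.039) and Ifngr1, an interferon gamma receptor chain, fell by 0.81 ± 0.14 (adjusted p = 0.029). With the block 5 were higher and 1 lower, against 753 and 1667 of 12172 genes. Among the higher were the kinase gene Ikbke (1.15 ± 0.57), Irf1 (0.80 ± 0.39) and Irf9 (0.56 ± 0.18). In solvent-treated cells Ikbke and Ticam1 had like differences in both experiments, at 1.15 and 1.14 log2 and at 0.37 and 0.47. After CLIK148, Ikbke read 11.06 and 10.39 log2 without a stimulus and 12.36 and 11.07 with CpG, a smaller difference in experiment 2. Ticam1 there read 8.84 and 8.96, and 9.16 and 9.24 with CpG. Irf7, the master factor of interferon alpha genes, was at 2.38 log2 in experiment 1 and 0.54 in experiment 2, and its response was smaller in experiment 2 (-1.80 ± 0.11, adjusted p = 6.12e-07). The CpG response of 11 of the 26 was smaller in experiment 2 and that of 3 larger, against 1403 and 2566 of 12172 genes. Among the smaller were Tlr3 (-1.97 ± 0.09) and Stat2 (-1.27 ± 0.09). Tlr9 read 7.62 to 7.84 log2 on all arrays, near the overall median.

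After CLIK148 the members also read higher with CpG, and again far more in experiment 1. The median was 0.97 log2, with 1.63 and 0.42 in experiments 1 and 2, and 40 members were above 0 (4616 of 12172 genes). Differences of at least 2-fold were measured for 35 members in experiment 1 (3.06% of all genes) and for 1 in experiment 2 (0.378%). In limma 0 passed (13 at an unadjusted p under 0.05), against 0.813% of all genes. With the block 17.1% of all genes passed, 491 of 12172 higher and 1586 lower. Among the members 6 passed, with Adar, Ifit1, Mx1, Parp14 and Usp18 higher and Ifnar2 lower. The largest were Ifit1 (2.09 ± 0.99), Isg20 (2.09 ± 0.92) and Ifit2 (2.08 ± 1.01), and the lowest Ifnar2 (-0.33 ± 0.12), Ifnar1 (0.03 ± 0.08) and Trim25 (0.19 ± 0.15). Leaving out its CpG array of experiment 1 or 2 gave a median of 0.36 or 1.61. This comparison shares no array with the solvent one, but its cultures come from the same 2 experiments.

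CLIK148 itself left no difference that passed the test. Alone, it had a member median of -0.00 log2. In experiment 1, 39 members were below 0 (7992 of 12172 genes), and in experiment 2, 35 were above 0 (6702 of 12172). The mean differences ran from -0.12 (Lgals3bp; then Adar at -0.11 and Trim21 at -0.11) to 0.07 (Cmpk2, Samd9l) and 0.05 (Zbp1). Under CpG the member median was -0.03 with 8 above 0 (4232 of 12172 genes). The members ran from Mx1 (-0.29 ± 0.44), Lgals3bp (-0.17) and Adar (-0.15) to Oas3 (0.06), Trim30a (0.07) and Isg20 (0.07). The difference between the CpG responses after CLIK148 and solvent had a median of -0.04 log2, from Samd9l (-0.20), Mx1 (-0.19) and Dtx3l (-0.14) to Trim21 (0.07), Trim30a (0.07) and Oas3 (0.13). In all 3 comparisons limma called 0 members with or without the block (0 at an unadjusted p under 0.05 without it), and 0% of all genes. These values do not show that CLIK148 had no effect: the 95% interval for Mx1 under CpG ran from -1.29 to 0.70 log2, and from -0.98 to 0.39 with the block.

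With TNF the members differed from unstimulated cells by less than with CpG. In solvent-treated cells the median difference was 0.15 log2 (all genes -0.05), with 31 members above 0 and 25 higher in both experiments (24.8% of all genes). Rsad2 (0.53 ± 1.03), Usp18 (0.53 ± 0.36) and Ifit1 (0.50 ± 0.99) were highest, and Ifnar2 (-0.29 ± 0.12), Trim25 (-0.28 ± 0.15) and Ifitm3 (-0.28 ± 0.19) were lowest. Another bright probe set of Trim25 read 12.30 and 12.40 log2 in solvent and 11.89 and 12.27 with TNF. A dimmer one was not lower, at 8.54 and 8.78, and 8.77 and 8.79. In limma 0 members passed (1 at an unadjusted p under 0.05; 0.115% of all genes passed), and with the block 0 passed as well (2 unadjusted; 3.11% of all genes). Ifnar2 had the smallest p of the members, with adjusted p = 0.653 and, with the block, 0.0799. Set against TNF, CpG gave a median 0.88 log2 higher, with 40 members above 0 and 39 higher in both experiments (27.3% of all genes). Without the CpG array of experiment 1 or 2 this median was 0.23 or 1.54. The largest gaps were Isg20 (1.91 ± 0.92), Ifit2 (1.81 ± 1.01) and Ifit3 (1.79 ± 1.17), and the smallest Ifnar2 (-0.01), Ifnar1 (0.01) and Ifnb1 (0.38, near background with TNF). In limma 0 passed (11 unadjusted; 0.00822% of all genes passed), and 0 with the block (34 unadjusted; 0.435%).

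CA074Me lay slightly below solvent for most of the set, without passing the test. Alone, its member median was -0.14 log2 (all genes -0.02). Below 0 were 39 of 41 (7579 of 12172 genes), and 31 were lower in both experiments (37.8% of all genes). The lowest were Rsad2 (-0.38 ± 1.03), Ifit1 (-0.37 ± 0.99) and Isg20 (-0.35 ± 0.92), and the highest Ifnar2 (0.03), Lgals3bp (0.03) and Oasl1 (-0.00). Within the experiments Ifit1 differed by -0.36 and -0.37 log2, and Rsad2 by -0.43 and -0.33. In limma 0 members passed (0 at an unadjusted p under 0.05, and 1 with the block), as did 0% of all genes with or without the block. With the block the 95% interval for Ifit1 ran from -1.61 to 0.87 log2.

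After CA074Me the TNF differences were larger in mean than after solvent, again without passing. The median was 0.29 log2, with 33 of 41 higher in both experiments (32.5% of all genes). Rsad2 (0.93 ± 1.03), Ifit1 (0.87 ± 0.99) and Mx1 (0.77 ± 0.44) were highest, and Ifitm3 (-0.27), Ifnar2 (-0.26) and Samd9l (-0.19) lowest. In limma 0 members passed (1 unadjusted; 1.31% of all genes passed), and 0 with the block (3 unadjusted; 11.1%). Under TNF, CA074Me and solvent differed by a median of 0.01 log2 over the members, from Ifit3 (-0.21), Ifit2 (-0.18) and Samd9l (-0.16) to Oas3 (0.13), Oasl2 (0.14) and Lgals3bp (0.22), with 0 passing in limma (0 unadjusted; 0% of all genes, and 0.00822% with the block). The interaction of CA074Me and TNF had a member median of 0.15 log2, with 39 members above 0 (7388 of 12172 genes). The members ran from Samd9l (-0.03), Trim21 (-0.03) and Sp100 (0.00) to Oas2 (0.35), Ifit1 (0.37) and Rsad2 (0.40). None passed (0 unadjusted; 0% of all genes). This interaction counts the unstimulated CA074Me and solvent arrays with opposite signs.

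**Figure D5:**
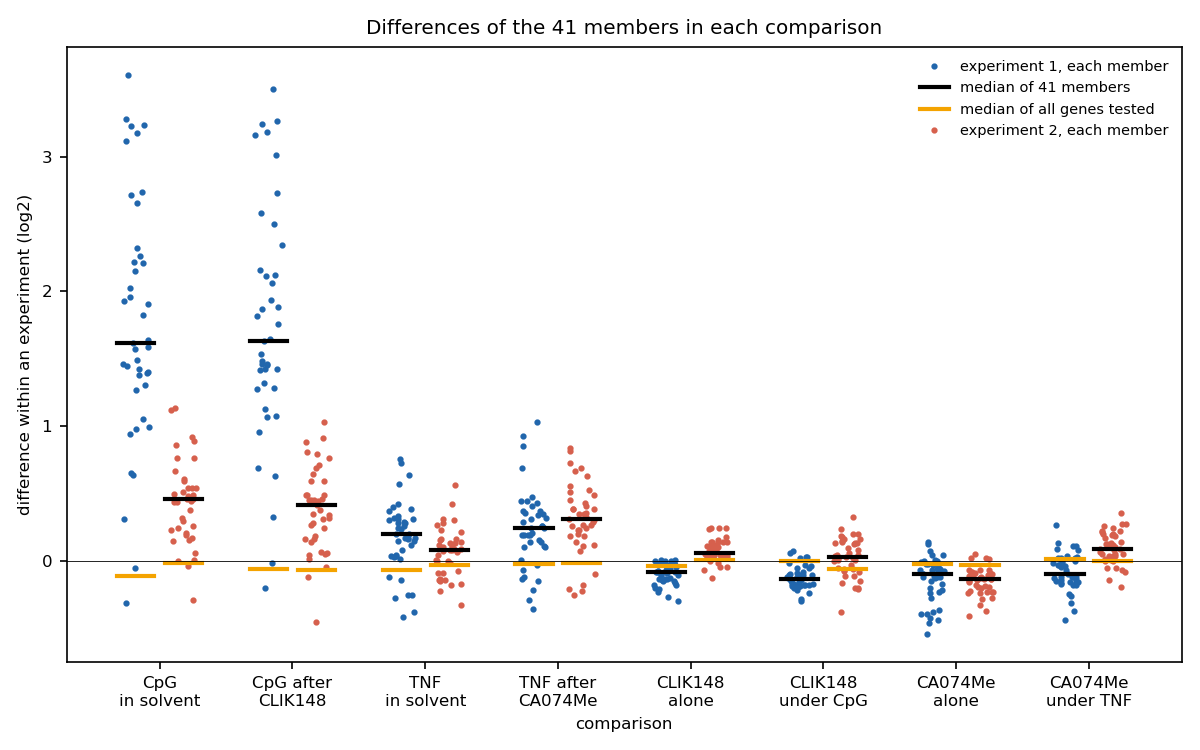
Difference within each experiment (vertical axis, log2) for each of the 41 members (points, spread sideways only for legibility) in 8 comparisons (horizontal axis), with the median of the members (black) and of all genes tested (orange). CpG medians of the members are 1.61 and 0.46 after solvent and 1.63 and 0.42 after CLIK148, and all other medians lie between -0.14 and 0.31.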

How the data were processed

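The authors deposited log2 values summarised by RMA in R 3.0.1, per the submitters' processing notes. Its settings were not found in the labels. RMA corrects background, normalises quantiles and summarises probes, which can compress large changes. The table holds 45101 probe sets on 14 arrays. The platform annotation gave 34945 of them 1 gene, 932 several and 9160 none, beside 64 control probe sets, and 34741 matched a RefSeq gene by identifier. With 2 arrays per group, their number limits precision.

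Using R 4.3.3 and limma 3.58.1, group means were fitted on the 12172 tested genes, all 14 arrays in 1 model, with Benjamini-Hochberg adjustment within each comparison. An alternative fit had the experiment as a block. Replicate numbers pair the arrays: the design text names 2 independent experiments, and replicate differences of 21 group pairs correlated with r from 0.455 to 0.935. The experiment comparisons used limma on the 7 differences between paired arrays. Called means adjusted p under 0.05, and tests are 2-sided. Plus-minus values are standard errors from the fit without the block, except for differences between experiments, where they come from the paired differences. The fits were tested on simulated data.

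The members, lists and tests were chosen with earlier results of these data known. Values of every array are given for 15 genes named by rule, the 3 highest and 3 lowest members in each comparison are named, and other genes come from fixed pathway and marker lists. Replicates are separate experiments, and p-values cover the spread between these samples. Alternatives were the block, cyclic loess, no filter on dim genes, averaging all probe sets of a gene, only the compared groups, and leaving out each array or pair.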

Additional observations from a re-analysis of the deposited data

Results flagged for a closer look

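The CpG response differed between the 2 experiments for 39 of 41 members in limma's test of the difference of paired differences, each time smaller in experiment 2. Over all genes 32.6% passed this test, 11.5% in that direction. The differences in log2 were -2.01 for Ifit1, -2.62 for Ifit3, -2.99 for Isg20, -2.14 for Rsad2, -2.44 for Cmpk2, -0.96 for Mx1, -1.61 for Ifih1, -1.23 for Usp18 and -0.52 for Ifnb1. Ifnb1 was at or below the overall median on 9 of 14 arrays and met the brightness filter mainly through the CpG arrays, so its value is taken against background and its test is not relied on; without it 38 of 40 members differed. The response was smaller in experiment 2 for 39 members after solvent and for 40 after CLIK148. In the tested difference 40 members and 4865 of 12172 genes were below 0. The cause was not tested.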

How the results depend on the processing

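With the experiment as a block, 14 members passed for CpG in solvent and 6 for CpG after CLIK148, against 0 without it, and no other count of calls changed. Cyclic loess gave a member median of -0.095 log2 for CA074Me alone, -0.021 for the CLIK148 and CpG interaction, 0.040 for Oasl1 with CA074Me alone and -0.044 for Sp100 in the CA074Me and TNF interaction. Averaging all probe sets of a gene gave a median of 0.23 for TNF after CA074Me, and turned Ifnar1 with CpG (-0.046 in solvent, -0.017 after CLIK148), Trim30a with CLIK148 under CpG (-0.035) and in the interaction (-0.041), Sp100 in the CA074Me and TNF interaction (-0.0043) and Ifnar2 for CpG against TNF (0.036). None of these single genes had passed the test. Of the other values of single members without leaving out arrays, 438 kept direction and call and 11 gained a call. Without 1 array of a group the remaining array stands alone, is assumed to vary like the other groups, and mixes the comparison with the gap between experiments. The count of members called for CpG in solvent was then 0 to 24, for the CpG gap between experiments 38 to 39 without 1 pair, and for the unstimulated gap 18 to 28, with a member median of -0.14 to -0.066 log2. The lowest and highest values, in log2, follow. For CpG in solvent the ranges were those of Ifnar1 (-0.0023 to 0.21). For TNF in solvent the ranges were those of the member median (-0.078 to 0.21), Ifit1 (-0.12 to 1.11) and Rsad2 (-0.086 to 1.15). For CLIK148 alone the ranges were those of Cmpk2 (-0.36 to 0.51), Samd9l (-0.26 to 0.40) and Zbp1 (-0.17 to 0.28). For CA074Me alone the ranges were those of the member median (-0.22 to -0.036), Ifit1 (-0.76 to 0.020), Ifnar2 (-0.078 to 0.13), Oasl1 (-0.22 to 0.22), Rsad2 (-0.77 to 0.014) and Lgals3bp (-0.19 to 0.25). For CLIK148 under CpG the ranges were those of the member median (-0.77 to 0.70), Adar (-0.48 to 0.17), Lgals3bp (-0.66 to 0.32), Mx1 (-0.95 to 0.37), Isg20 (-1.42 to 1.55), Oas3 (-0.75 to 0.87) and Trim30a (-0.59 to 0.73). For CA074Me under TNF the ranges were those of Ifit2 (-0.64 to 0.28), Ifit3 (-0.73 to 0.30), Samd9l (-0.54 to 0.22), the member median (-0.15 to 0.13), Oas3 (-0.029 to 0.29) and Oasl2 (-0.23 to 0.52). For TNF after CA074Me the ranges were those of Samd9l (-0.57 to 0.20) and the member median (0.12 to 0.32). For the CLIK148 and CpG interaction the ranges were those of the member median (-0.76 to 0.70), Mx1 (-0.85 to 0.47), Samd9l (-1.002 to 0.60), Dtx3l (-0.52 to 0.24), Ifnb1 (-0.20 to 0.35), Oas3 (-0.68 to 0.94) and Trim30a (-0.59 to 0.73). For the CA074Me and TNF interaction the ranges were those of Ifit1 (-0.24 to 0.99), Oas2 (-0.056 to 0.75), Sp100 (-0.19 to 0.19), Samd9l (-0.41 to 0.35), Trim21 (-0.13 to 0.073), the member median (0.0032 to 0.29) and Rsad2 (-0.21 to 1.02). For CpG against TNF the ranges were those of Ifnar2 (-0.13 to 0.11) and Ifnar1 (-0.096 to 0.11). For the CpG gap between experiments the ranges were those of Ifnar2 (-0.13 to 0.056) and the member median (-1.40 to -1.18). With 2 experiments, the size of a typical CpG response cannot be set from these data, and Ifnb1 was too dim on most arrays to be read.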
